A study of Schizocosa ocreata with 10 samples.

Results

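Biogenic amines are small signalling molecules made from amino acids, and this account covers the genes for their synthesis, packaging and re-uptake in the brain of the wolf spider Schizocosa ocreata. Members were the genes whose annotated Drosophila match carried the symbol ple, Ddc, Tdc1, Tdc2, Tbh, Trh, Trhn, Hn, Vmat, DAT or SerT and which had a row of read counts. This rule used no measured value. It found 19 members among 25922 counted genes, with 1 gene for Hn, 2 for ple, 1 for Ddc, 2 for Tdc2, 1 for Tbh, 6 for Vmat and 6 for DAT. No counted gene carried the names Tdc1, Trh, Trhn or SerT, so that 7 of the 11 symbols were represented.

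RNA was sequenced from the brains of individual spiders collected in the field. Females gave 2 immature and 3 mature libraries, and males gave 3 immature and 2 mature ones. Dissection took place 24 hours past the maturity molt for mature animals, and 3 to 4 days after collection for immature ones, whose time to the next molt was not known. No treatment, strain or allele distinguished the groups. The brains were freed of surrounding muscle and may have included oesophagus. Each library was 1 spider, so the errors below measure the spread between spiders, and genes are not replicates.

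In insects, tyrosine is the starting point for dopamine and octopamine. Hn encodes phenylalanine hydroxylase, which makes tyrosine from phenylalanine, and ple encodes tyrosine hydroxylase, the rate-limiting enzyme of dopamine synthesis. Ddc, the aromatic amino acid decarboxylase, completes both dopamine and serotonin, while Tdc2 turns tyrosine into tyramine and Tbh turns tyramine into octopamine. Vmat loads amines into synaptic vesicles, and DAT and SerT take dopamine and serotonin back up from outside the cell. Trh and Trhn are symbols for tryptophan hydroxylase, which begins serotonin synthesis. These roles are known from Drosophila and were not measured in this spider.

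Most members were pieces of a protein rather than whole coding sequences, as the stretch of the Drosophila protein that each one matched shows. Hn (Gene017463) matched residues 27 to 445 of the fly protein at 66.03% identity and carried both an ACT and a biopterin-dependent hydroxylase domain. The 2 ple genes matched separate stretches, residues 2 to 259 for Gene011391 and residues 332 to 504 for Gene011191, so the files do not show whether they are 2 genes or 2 ends of 1 gene. The same holds for 3 Vmat members placed one after another, namely Gene021301 (residues 129 to 326), Gene011547 (358 to 519) and Gene001181 (510 to 610), the last pair sharing only a short stretch, and for the DAT members Gene014266 (24 to 410) and Gene019275 (422 to 603). By contrast, Vmat Gene009888 (residues 495 to 610) lay over the stretch of Gene001181, and DAT Gene003912 (26 to 166) and Gene007767 (25 to 61) lay over that of Gene014266, so these were distinct sequences over a shared stretch. The 2 Tdc2 genes, Gene016892 (residues 1 to 476 at 70.17% identity) and Gene005344 (402 to 519 at 48.37%), also shared a stretch.

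**Figure D1:**
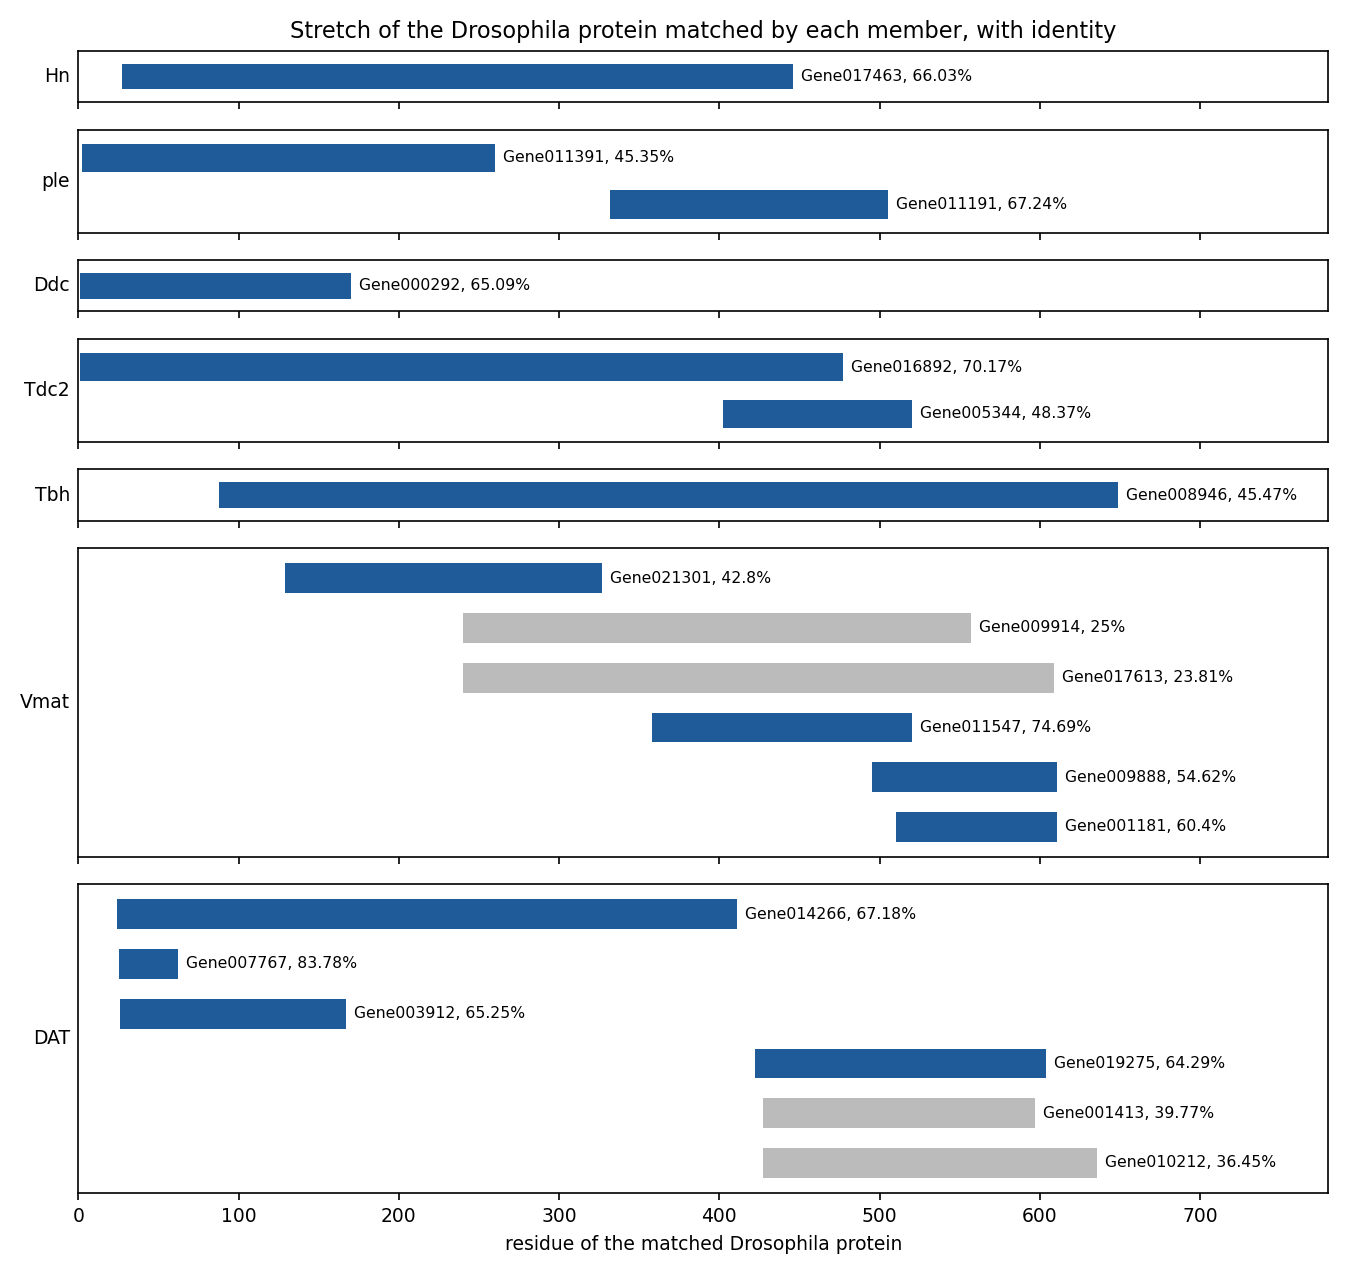
Stretch of the Drosophila protein matched by each of the 19 members, with the residue number on the horizontal axis and the percent identity beside each bar. The 15 blue bars are members whose Swiss-Prot match belongs to the family the symbol names, and the 4 grey bars are the Vmat members Gene009914 and Gene017613 and the DAT members Gene001413 and Gene010212, whose identity to the fly protein was between 23.81% and 39.77%.

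The symbol was not always supported by the second database used in the annotation. For 15 of 19 members the best Swiss-Prot match named the same family of protein. The Vmat members Gene009914 and Gene017613 were 25% and 23.81% identical to fly Vmat and had MFS-type transporter SLC18B1, a vesicular polyamine transporter in mammals, as their best Swiss-Prot match. The DAT members Gene001413 and Gene010212 had glycine transporter 2 as theirs. These 4 are described below by both names. The coding sequences of 5 members (ple Gene011391, Vmat Gene021301 and the DAT members Gene014266, Gene007767 and Gene010212) overlapped a second predicted sequence on the opposite strand that matched no known protein and held between 46 and 658 reads against 319 to 3618 for the member. The sources used here do not say whether reads were counted by strand, so such reads cannot be told apart.

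Total counts ran from 3481348 to 11789754 per library, and 24930 genes, all 19 members among them, passed the filter on low counts. Levels are given as CPM, the read count in proportion to the library total as scaled by the TMM method, and serve to compare 1 gene between libraries. Levels of different genes are compared only per length, as RPKM (CPM per kilobase of coding sequence). The paper assigned reads to gene clusters, whereas each length is that of the 1 coding sequence annotated for the gene. Per-length differences between genes, most of them pieces, can therefore also reflect cluster content or sequence length. Of 10 neuron genes looked up, 9 (nSyb, Syt1, brp, Syx1A, Snap25, cac, para, Rim and unc-13) had reads in every library and elav had no gene in the table. Their summed level ran from 2521 CPM in immature female 2 to 6383 CPM in mature female 3. Muscle genes summed to between 56390 and 164500 CPM, and a haemocyte list stood at 16760 CPM in immature female 3 against 816.5 to 3528 CPM elsewhere. Immature female 2, immature male 1 and immature male 3 stood apart from the other 7 libraries in Hn itself and in the hormone receptor Hr4. Other molting receptor genes did not all share this contrast, as given below. Values with and without these 3 libraries are given where a result rests on them.

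Hn had the highest mean level of the members per length, and its libraries fell into a low and a high range with nothing between them. Its CPM was 10.1 and 644.6 in the 2 immature females, 3.75, 540.1 and 5.84 in the 3 immature males, 564.4, 568.5 and 921.7 in the 3 mature females, and 630.2 and 699.2 in the 2 mature males. All 5 mature libraries were therefore above 560 CPM, while 3 of the 5 immature ones, from both sexes, were at or below 10.1 CPM and the other 2 lay beside the mature ones. The low values still rested on 129, 19 and 50 reads, against 1849 to 10211 reads in the other 7. The highest library stood 245.6-fold above the lowest, and no library lay between 10.1 and 540.1 CPM. Since these were whole brains, fewer cells that express a gene and less of its RNA per cell cannot be told apart.

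Hr4 encodes a nuclear receptor that in Drosophila is induced by the molting hormone. Its 2 genes ran the other way, with 137.2, 154.5 and 285.6 CPM (Gene001472) and 143.4, 505.0 and 668.2 CPM (Gene001811) in immature female 2, immature male 1 and immature male 3, and at most 15.7 and 5.13 CPM in the other 7. The 3 libraries lowest for Hn were also the 3 lowest for Ddc and for the SLC18B1-like Vmat members Gene009914 and Gene017613, 3 of the 18 other members. Over all tested genes, 4.67% had these as their 3 lowest libraries and 8.78% had them as their 3 highest, and no member was among the latter. The 3 libraries were chosen by Hn, so these counts are a description. Hr4 belongs to a list of 10 molting receptor genes, which did not all share its pattern. Hr3 Gene022715 and Eip75B also had the same 3 libraries as their highest. Both ftz-f1 genes had them as their 3 lowest, with Gene007559 at 2.185, 13.04 and 4.206 CPM against 28.75 to 59.65 CPM elsewhere. Hr3 Gene001858, both Eip74EF genes and EcR had these 3 libraries neither as their highest nor as their lowest. The part of the molting cycle in all these values was not tested.

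**Figure D2:**
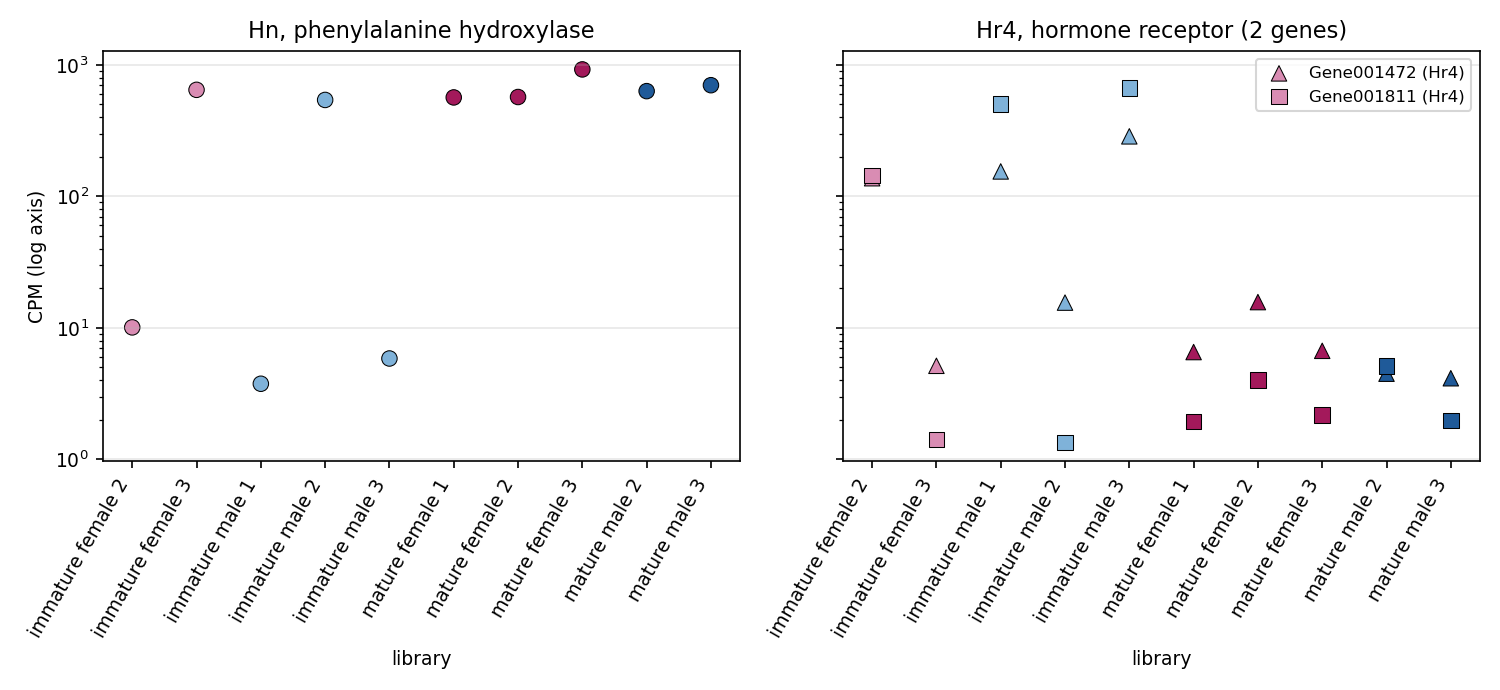
CPM on a log axis in each of the 10 libraries for Hn (left) and for the 2 Hr4 genes (right, triangles and squares), coloured by group. Hn was at or below 10.1 CPM in immature female 2, immature male 1 and immature male 3, the same libraries in which both Hr4 genes were above 130 CPM.

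Genes of tyrosine breakdown did not share the order of Hn over all libraries. Of the 5 cofactor genes, 2 had the same 3 lowest libraries and Sptr had them as its 3 highest. A list of tyrosine breakdown enzymes, chosen after the values of Hn were seen, summed to 41.8, 39.5 and 42.1 CPM in the 3 libraries low for Hn. It reached 92.3 CPM in immature female 3 and 190.8 CPM in immature male 2, the 2 immature libraries with high Hn. Of the 5 mature libraries, mature male 2 was at 85.9 CPM and the other 4 at only 26.1 to 37.9 CPM. Among the cofactor genes, Dhpr (Gene006366) in mammals recycles the tetrahydrobiopterin that hydroxylases such as Hn consume. It stood at 34.4, 36.9 and 38.6 CPM in those 3 libraries and between 46.5 and 95.0 CPM in the other 7. Pcd (Gene006295), which in mammals acts in the same recycling, stood at 8.20, 4.74 and 5.72 CPM in the 3 and between 8.25 and 16.5 CPM in the other 7. Sptr (Gene006026), another of the cofactor genes, ran the other way. It stood at 14.3, 10.3 and 9.23 CPM in the 3 and between 4.33 and 6.67 CPM in the other 7. Neither Pu nor pr had these 3 libraries as its lowest or its highest.

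Per length, mean levels spread widely between the members, with tyrosine hydroxylase and the consecutive Vmat and DAT pieces at the bottom and Hn at the top. Hn averaged 339 ± 244 RPKM (SD, n = 10), at the 98.2nd percentile of all tested genes, whose median was 10.03 RPKM. Ddc averaged 61.4 ± 18.8, the glycine transporter-like DAT member Gene010212 60.1 ± 11.7, Vmat Gene009888 50.8 ± 19.0, DAT Gene003912 46.8 ± 19.7 and Tbh 44.5 ± 18.4 RPKM, and the ranges of mean ± SD of these 5 overlapped. Above them stood only Hn and the short DAT piece Gene007767 at 114 ± 23.7 RPKM. Below them came DAT Gene001413 at 30.2 ± 7.72, Vmat Gene017613 at 21.3 ± 7.15, the Tdc2 genes at 18.6 ± 6.84 and 13.2 ± 4.41, and Vmat Gene009914 at 13.3 ± 3.64 RPKM, and in this order the ranges of mean ± SD of neighbours overlapped. Separate from all of these were 7 members with means between 4.47 and 5.20 RPKM, namely both ple genes, the 3 Vmat pieces that match consecutive stretches and the DAT members Gene014266 and Gene019275. These 7 were picked out by their level and rested on only 6 to 90 reads per library. All genes were measured in the same libraries, so overlap of the ranges above does not mean equal levels within a library.

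**Figure D3:**
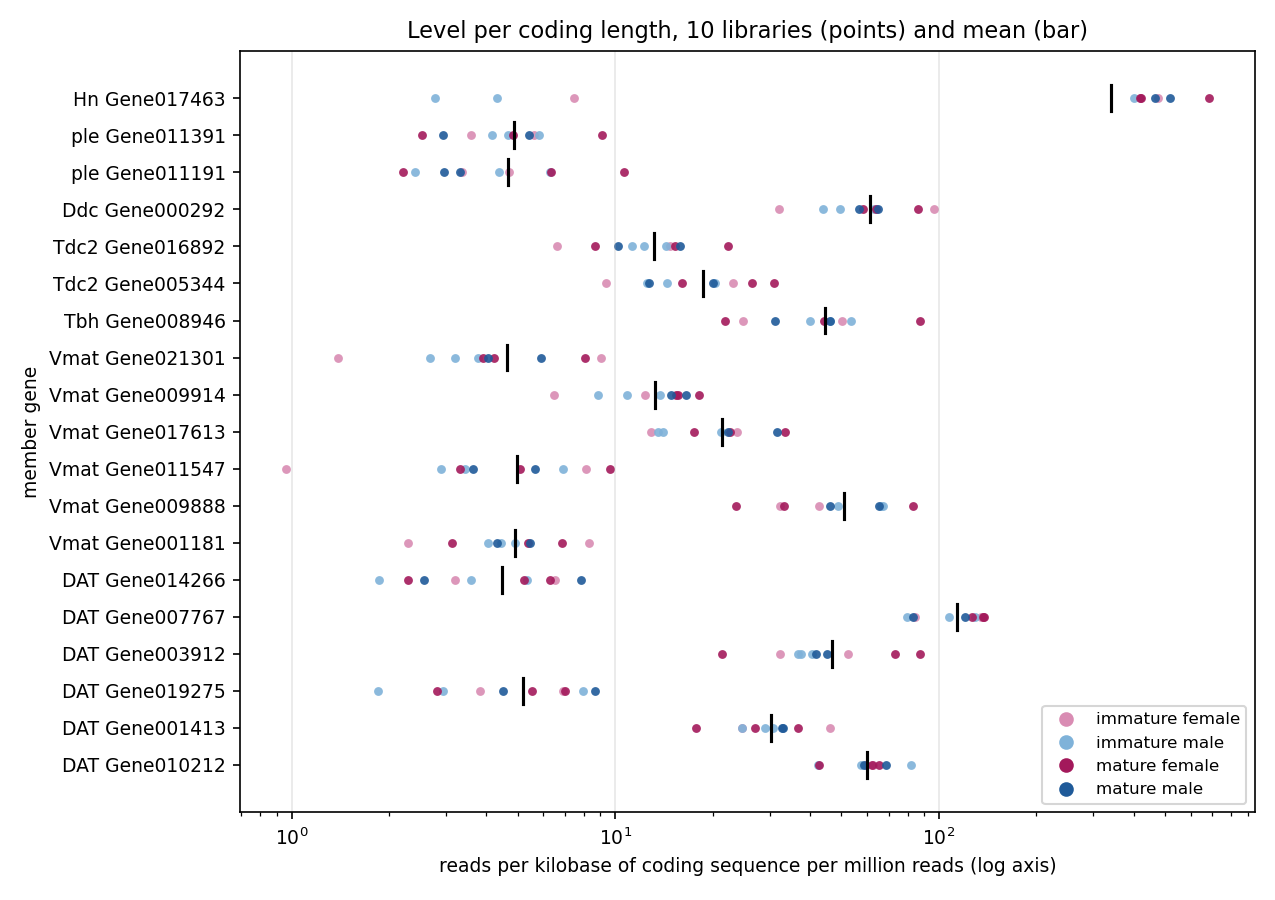
Level of each member in RPKM on a log axis, with 1 point per library coloured by group and a bar at the mean over 10 libraries. Both ple genes, 3 Vmat pieces and 2 DAT members have means between 4.47 and 5.20, Tbh and Ddc have means of 44.5 and 61.4, and Hn shows 3 points far below its other 7.

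Tyrosine hydroxylase was a low signal that varied most among the mature females. Its piece ple Gene011391 stood at 2.73 and 4.26 CPM in immature females, 3.56, 3.17 and 4.44 in immature males, 1.93, 3.69 and 6.95 in mature females, and 2.24 and 4.13 in mature males. The other piece, ple Gene011191, stood at 1.79 and 2.51, at 3.36, 2.34 and 1.29, at 1.18, 3.38 and 5.69, and at 1.77 and 1.57 CPM in the same groups. Both had their highest value in mature female 3 and their lowest in mature female 1, so that 1 group spanned the whole range. Per length the ratio of Gene011191 to Gene011391 had a median of 0.995 over the libraries, with extremes of 0.413 and 1.35.

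Ddc, the next enzyme, had a far higher level per annotated length. Its CPM was 18.7 and 56.1 in immature females, 25.5, 36.8 and 28.9 in immature males, 33.9, 37.2 and 50.1 in mature females, and 33.0 and 37.6 in mature males. The 2 immature females held both the lowest and the highest value. Per length Ddc exceeded ple Gene011391 in every library, by a median of 12.6-fold and by between 8.51-fold and 23.0-fold. In Drosophila Ddc also serves serotonin synthesis and the hardening of cuticle. A list of cuticle genes ran here from 1134 CPM in immature male 3 to 10280 CPM in mature female 2. Ddc was at 28.9 and 37.2 CPM in these libraries. The part of cuticle in the Ddc values was not tested.

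**Figure D4:**
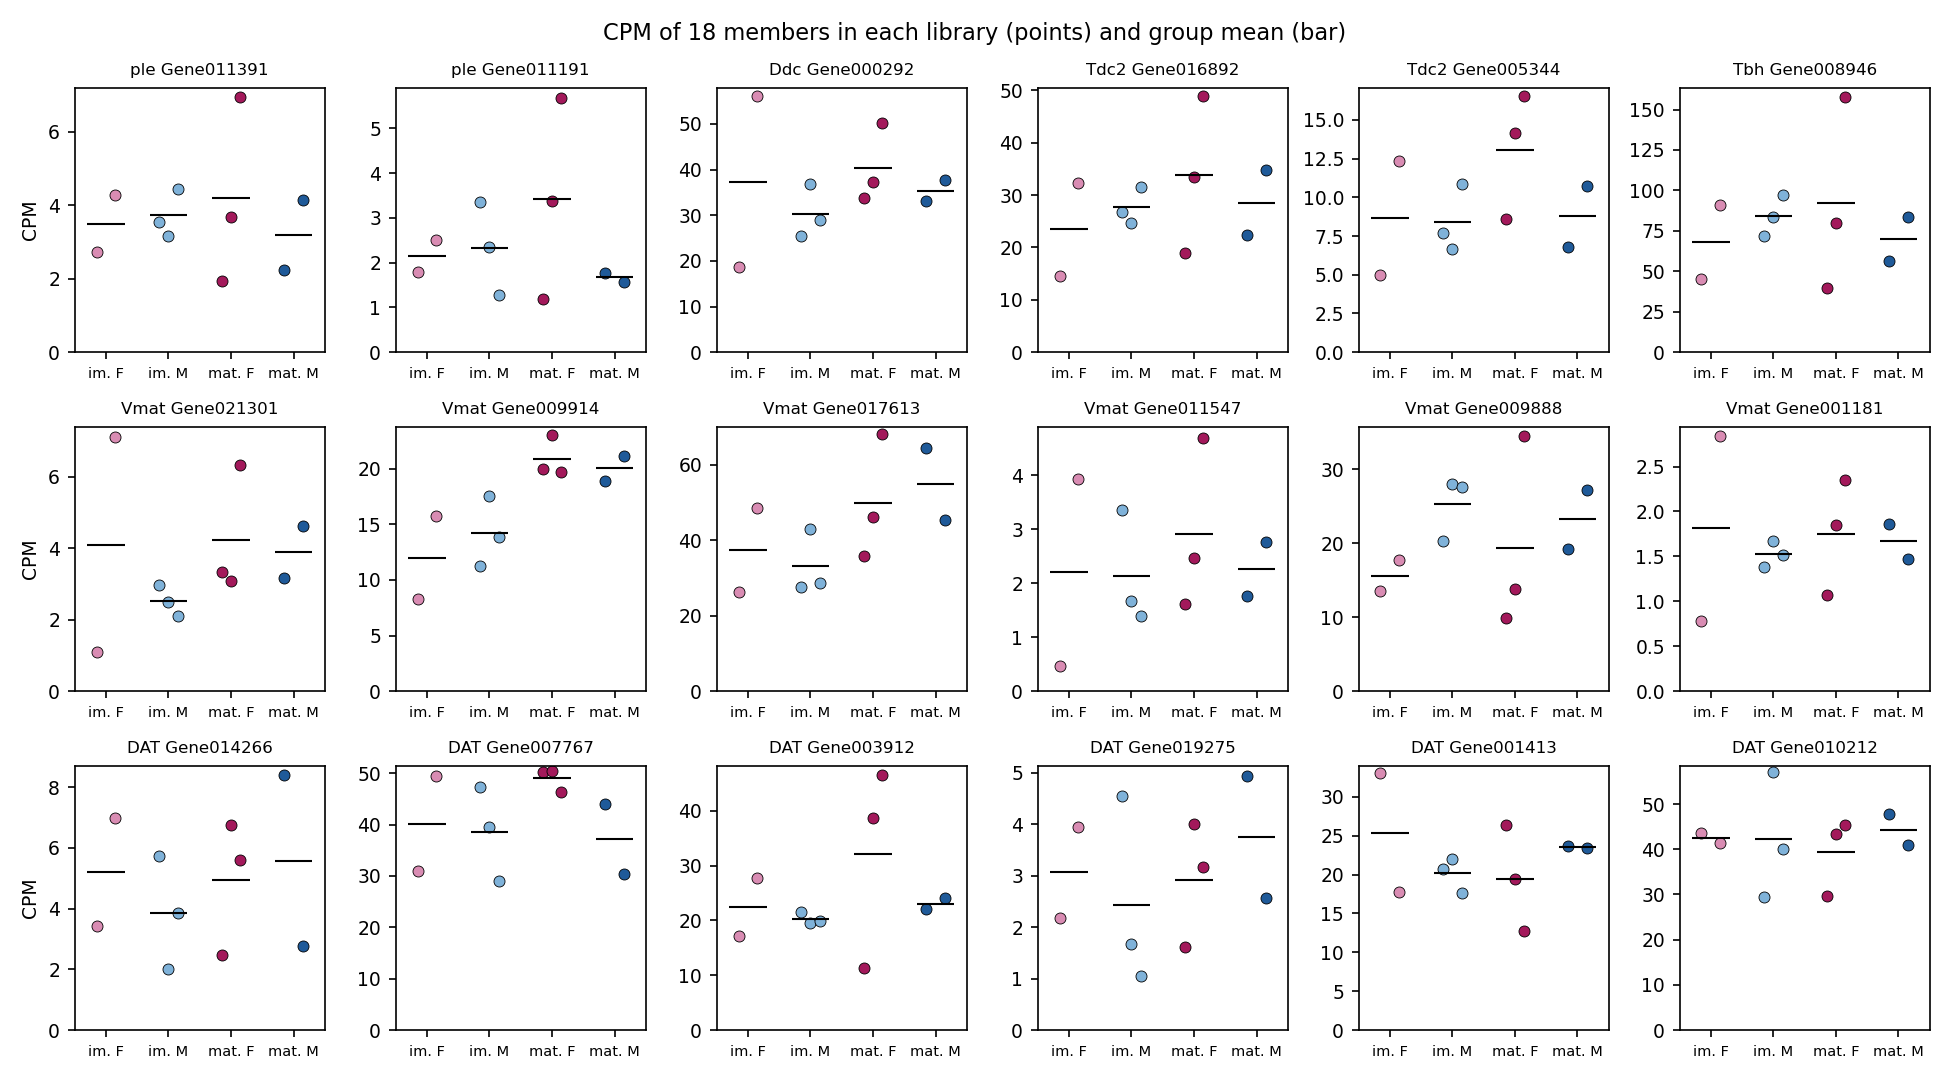
CPM of the 18 members other than Hn, 1 panel per gene with its own axis starting at 0, showing each library as a point and each group mean as a bar for immature females (im. F), immature males (im. M), mature females (mat. F) and mature males (mat. M). Vmat Gene009914 is the panel in which all 5 mature libraries (18.9 to 23.1 CPM) lie above all 5 immature ones (8.27 to 17.5 CPM).

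Per length, the octopamine enzymes stood above tyrosine hydroxylase in all 10 libraries. Tbh (Gene008946), whose best Swiss-Prot match is the related dopamine beta-hydroxylase of vertebrates, was at 45.0 and 90.8 CPM in immature females, 72.1, 83.4 and 96.9 in immature males, 39.6, 79.6 and 157.7 in mature females, and 56.4 and 83.4 in mature males. Its per-length level was a median of 9.03-fold that of ple Gene011391, with a range of 6.93-fold to 11.1-fold. The larger Tdc2 gene, Gene016892, was at 14.5 and 32.4, at 26.9, 24.7 and 31.5, at 19.0, 33.5 and 48.8, and at 22.4 and 34.7 CPM in the same order of groups. The smaller, Gene005344, was at 4.99 and 12.4, at 7.70, 6.68 and 10.9, at 8.57, 14.1 and 16.5, and at 6.81 and 10.7 CPM. All 3 were highest in mature female 3, and mature females covered most of the range of each.

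The proportions of the octopamine genes within a library varied less than their levels. This was not particular to them, since per length Tbh to ple Gene011391 ran only from 6.93-fold to 11.1-fold. Per length Tbh exceeded Tdc2 Gene016892 by between 2.53-fold and 4.09-fold, and Tdc2 Gene005344 exceeded Gene016892 by between 1.11-fold and 1.86-fold. Over the 10 libraries the log2 CPM of Tbh correlated with that of Tdc2 Gene016892 with Pearson r = 0.92 (permutation p = 0.00031, adjusted 0.0122) and Spearman rho = 0.76 (permutation p = 0.0153, adjusted 0.112), and r was 0.86 without the 2 libraries farthest from the median of Tdc2 Gene016892. The 2 Tdc2 genes had r = 0.90 (permutation p = 0.00056, adjusted 0.0122) and rho = 0.84 (permutation p = 0.00386, adjusted 0.0761), with r = 0.75 without the same 2 libraries, immature female 2 and mature female 3.

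Vmat was named for 6 genes that differed in level, in identity to the fly protein and in their pattern over libraries. The consecutive pieces Gene021301, Gene011547 and Gene001181 were low, with CPM of 1.09 to 7.11, 0.468 to 4.69 and 0.780 to 2.84. Gene021301 stood at 1.09 and 7.11 CPM in immature females, 2.96, 2.51 and 2.10 in immature males, 3.32, 3.07 and 6.32 in mature females, and 3.17 and 4.63 in mature males. Each of these 3 pieces had its lowest value in immature female 2, with 14, 6 and 10 reads. Per length Gene021301 was close to ple, at a median of 0.845 times the level of Gene011391. Gene021301 and Gene011547 varied together, with r = 0.91 (permutation p = 0.00056, adjusted 0.0122), rho = 0.77 (permutation p = 0.0122, adjusted 0.109) and r = 0.79 without the 2 immature females, which were farthest from the median of Gene021301.

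The remaining 3 Vmat members were higher. Gene009888, which matches the same end of the fly protein as Gene001181 and has the chromaffin granule amine transporter as its best Swiss-Prot match, exceeded it per length by a median of 12.1-fold. It was at 13.5 and 17.7 CPM in immature females, 20.3, 28.1 and 27.6 in immature males, 9.86, 13.8 and 34.6 in mature females, and 19.2 and 27.3 in mature males. The immature males thus lay above the immature females, while in mature spiders the females spanned the males.

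The SLC18B1-like pair had its lowest values in immature libraries, though neither passed the test. Gene009914 was at 8.27 and 15.7 CPM in immature females, 11.3, 17.5 and 13.9 in immature males, 19.9, 23.1 and 19.7 in mature females, and 18.9 and 21.2 in mature males. It was the only member whose immature and mature libraries did not overlap. Gene017613 was at 26.2 and 48.4, at 27.7, 43.1 and 28.6, at 35.8, 46.1 and 68.1, and at 64.5 and 45.3 CPM in the same groups, where immature female 3 and immature male 2 reached into the mature range.

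DAT was also named for 6 genes. The long piece Gene014266 stood at 3.434 and 6.997 CPM in immature females, 5.73, 2.00 and 3.86 in immature males, 2.47, 6.76 and 5.60 in mature females, and 8.39 and 2.76 in mature males. Gene019275, the piece that follows it along the fly protein, ran from 1.05 to 4.94 CPM and, like Gene014266, was highest in mature male 2. Their correlation was r = 0.79 (permutation p = 0.00852, adjusted 0.0593) and rho = 0.81 (permutation p = 0.00739, adjusted 0.109). It was r = 0.72 without immature male 2 and mature female 1, the 2 libraries farthest from the median of Gene014266. Mature male 2, where both genes were highest, was kept. Per length Gene014266 was at a median of 0.899 times ple Gene011391, between 0.448 and 2.66 times.

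The other sequences with a DAT name had higher levels per annotated length. Gene003912, which covers the start of the same stretch as Gene014266, exceeded it per length by a median of 10.3-fold and in every library by at least 5.33-fold. Its CPM was 17.2 and 27.8 in immature females, 21.5, 19.6 and 19.9 in immature males, 11.4, 38.7 and 46.5 in mature females, and 22.1 and 24.0 in mature males. Gene007767, the shortest match, varied little, at 29.1 to 50.4 CPM, with all 3 mature females (46.4 to 50.4 CPM) above both mature males (30.4 and 44.0 CPM).

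The glycine transporter-like members differed from each other in pattern. Gene010212 ran from 29.4 to 57.1 CPM with its lowest and highest values both in immature males. Gene001413 was at 33.0 and 17.7 CPM in immature females, 20.7, 22.1 and 17.6 in immature males, 26.4, 19.4 and 12.7 in mature females, and 23.7 and 23.4 in mature males. It was lowest in mature female 3, where the octopamine genes were highest, and its log2 CPM ran against that of Tbh with r = -0.91 (permutation p = 0.00053, adjusted 0.0122), rho = -0.89 (permutation p = 0.00124, adjusted 0.0632) and r = -0.88 without mature female 1 and mature female 3, the 2 libraries farthest from the median of Tbh. Immature female 2, where Gene001413 was highest, was kept.

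For serotonin, no gene carried the name Trh, Trhn or SerT. None of the counted genes had an entry named tryptophan 5-hydroxylase as its Swiss-Prot match, either as a protein or by translated nucleotide search, and the serotonin transporter was the translated match of 1 gene. Hn matched protein henna, a biopterin-dependent hydroxylase, and whether it acts on tryptophan was not measured. Of 4 genes named for serotonin receptors, 5-HT1B Gene018246 ran from 3.56 to 8.03 CPM and 5-HT1A Gene016528 from 0.0932 to 8.09 CPM. The other 5-HT1B gene (Gene008629, at most 1.07 CPM) and the other 5-HT1A gene (Gene025120, at most 0.903 CPM) did not pass the filter on low counts. A name assigned by similarity to Drosophila can miss a spider gene, and no search of the sequences was made.

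Maturity was compared within each sex and over both sexes. A gene was called when edgeR's quasi-likelihood test gave a Benjamini-Hochberg adjusted p under 0.05 over the 24930 genes tested, and no member was called. In females 0 of 19 members were called against 0% of all genes, in males 0 of 19 against 0.00802%, and over both sexes 0 of 19 against 0%. The likelihood ratio test of edgeR called 1.18%, 0.517% and 2.59% of all genes in these comparisons and DESeq2 called 1.51%, 1.02% and 2.98%, again without a member. At an unadjusted p under 0.05 there was 1 member in females (10.5% of all genes), 0 in males (7.44%) and 1 over both sexes (15.1%), in both cases Vmat Gene009914.

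The SLC18B1-like Gene009914 was higher in mature brains by a log2 fold change of 0.65 (SE 0.23) over both sexes, with an adjusted p of 0.275 by edgeR's quasi-likelihood test. In females alone the value was 0.80 (SE 0.33, adjusted p = 0.474 by the same edgeR test). Its mature and immature libraries did not overlap, as held for 1.5% of all genes in that direction, while 0 members were separate in the other (1.91% of all genes). In females 1 member (Gene009914) had all mature above all immature libraries, against 10.7% of all genes, and none had them below (14.4%). In males there were 6, namely Hn, Gene021301, Gene009914, Gene017613, Gene003912 and Gene001413, against 11.4% of all genes, and 0 in the other direction (11.1%). The male member with the lowest p, Gene017613, gave 0.73 as log2 fold change, with SE 0.38 and an adjusted p of 0.743 by edgeR's quasi-likelihood test. Without the 3 libraries low for Hn, a choice made after seeing the data, the log2 fold change of Gene009914 over both sexes fell to 0.31.

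Hn, given here because of its levels rather than by the rule for fold changes, had a log2 fold change of 1.46 (SE 1.34) over both sexes, with an adjusted p of 0.604 by edgeR's quasi-likelihood test. It was 1.07 (SE 1.92) in females and 1.86 (SE 1.83) in males. The SE was larger than the change in females and nearly as large in males and over both sexes, where immature libraries held both low and high values. Leaving out immature male 2, one of the 2 immature libraries with high Hn, raised the value over both sexes to 4.07 with an adjusted p of 0.0859 by the same edgeR test, the lowest of any member under any alternative. Leaving out the 3 low libraries, which were chosen by Hn itself, gave 0.20.

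Most members had a small positive log2 fold change in mature brains. Over both sexes 17 of 19 were above 0, with a median of 0.22 against -0.02 for all genes, and apart from Hn they lay between -0.08 and 0.65 with SEs of 0.22 to 0.57. This direction depended on the reference and on the libraries, since 5 of 19 were above 0 when counts were scaled to the reads of the neuron list, which moved the median of all genes to -0.31, and 11 of 19 without the 3 libraries low for Hn. Relative to the median of all genes, 17 members stood above it in the first case, 16 under the neuron scaling and 9 without the 3 libraries.

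**Figure D5:**
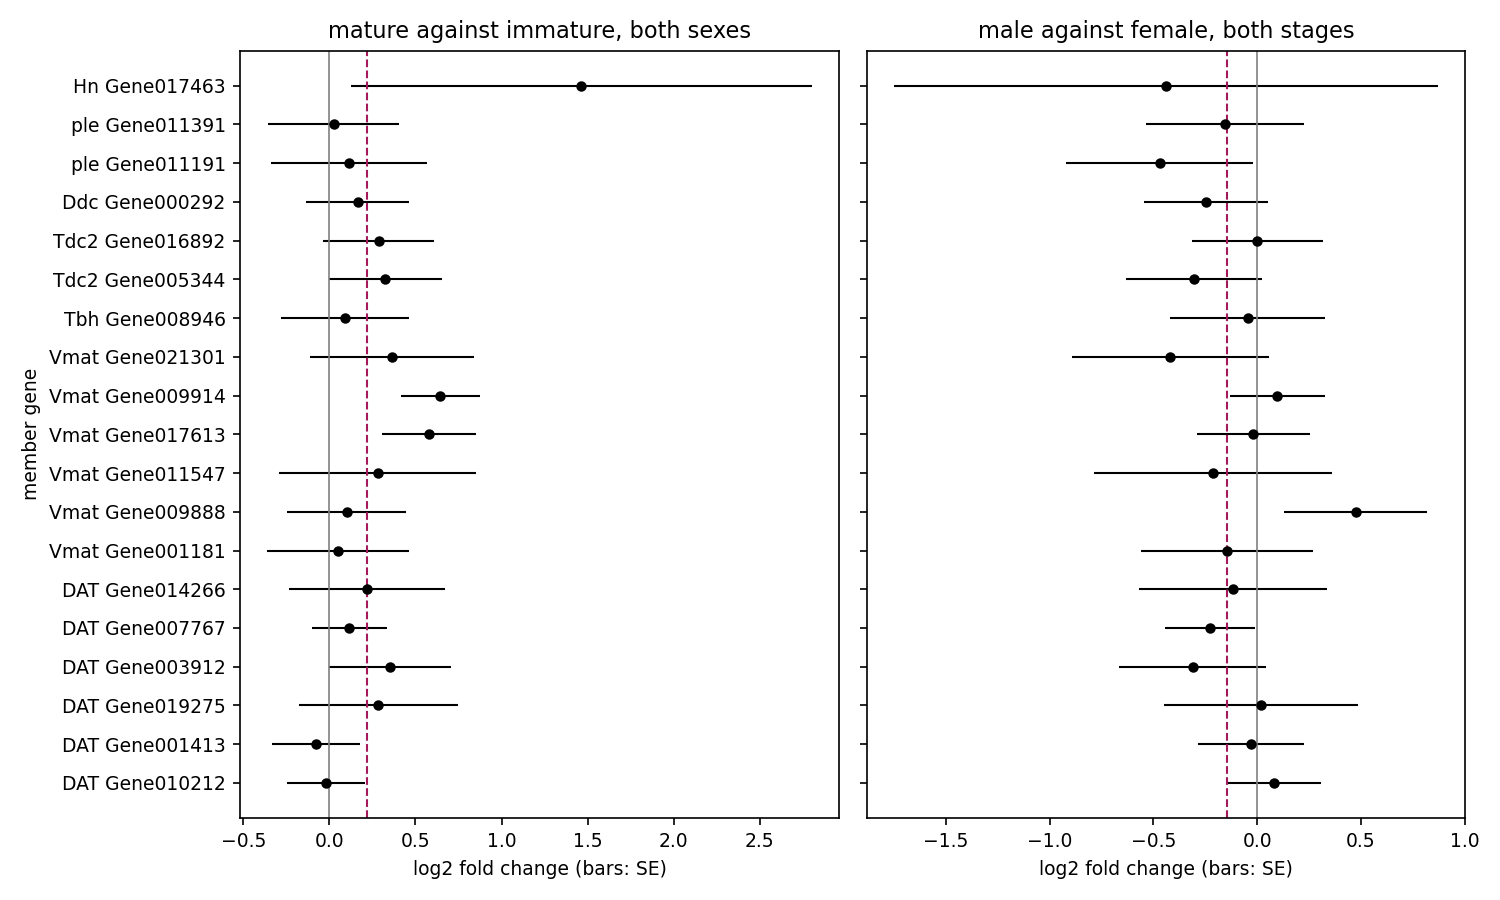
Log2 fold change of each member with bars of 1 SE for mature against immature over both sexes (left) and male against female over both stages (right), with the grey line at 0 and the dashed line at the median of the 19 members (0.22 and -0.15). Vmat Gene009914 on the left (0.65, SE 0.23) lies furthest from 0 for its error, and Hn has the widest bars (SE 1.34 on the left).

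Males and females were compared within each stage and over both. No member was called by edgeR's quasi-likelihood test, with 0 of 19 against 0.0321% of all genes in immature spiders, 0.0401% in mature spiders and 0.0401% with stages combined. The likelihood ratio test (0.566%, 0.181% and 0.377% of all genes) and DESeq2 (0.939%, 0.217% and 0.493%) called none of them either, and no member had an unadjusted p under 0.05 in any of the 3 comparisons, where 6.01%, 2.47% and 4.45% of all genes did.

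Vmat Gene009888 had the lowest p in immature spiders, with males above females by a log2 difference of 0.70, SE 0.50 and an adjusted p of 0.972 by edgeR's quasi-likelihood test. It was the 1 member whose immature males all lay above the immature females, as did 7.4% of all genes, and none lay below them (7.6% of all genes). Over both stages its value was 0.47 (SE 0.35, adjusted p = 1 by edgeR's quasi-likelihood test). In mature spiders ple Gene011191 had the lowest p, at -1.03 on the log2 scale (SE 0.65, adjusted p = 1 by edgeR's quasi-likelihood test), and its 2 males at 1.77 and 1.57 CPM lay inside the range of the females at 1.18 to 5.69 CPM. The only member with separate mature ranges was DAT Gene007767, lower in males, against 7.65% of all genes in that direction and 6.26% in the other. Over both stages no member had separate ranges, against 0.237% of all genes with males higher and 0.357% with males lower.

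Most members had a small negative log2 fold change in males. Over both stages 14 of 19 were below 0, with a median of -0.15 against -0.01 for all genes, and 15 of 19 without the 3 libraries low for Hn, with a median of -0.40. Scaling to the neuron list moved the median of all genes to 0.05 and left 8 of 19 members below 0. Relative to the median of all genes, 5 of 19 members stood above it in the first case, 4 without the 3 libraries and 10 under the neuron scaling. Hn had a log2 fold change of -0.84 (SE 1.83) between the immature sexes and -0.04 (SE 1.85) between the mature ones. Leaving out immature female 3 alone turned the immature value to 4.19, since each sex held immature libraries with high and with low Hn.

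An interaction term asked whether females and males changed differently with maturity. By edgeR's quasi-likelihood test 0 of 19 members were called against 0% of all genes, and 0 members had an unadjusted p under 0.05 against 3.2% of all genes. The likelihood ratio test called 0.0562% and DESeq2 0.124% of all genes, with no member. The member with the lowest p was ple Gene011191, with an interaction of -1.12 on the log2 scale (SE 0.91, adjusted p = 1 by edgeR's quasi-likelihood test).

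The summed level of the members other than Hn ranged less relative to the neuron genes than in CPM. Summed over the 18 members other than Hn, the level ran from 268.3 CPM in immature female 2 to 581.1 CPM in mature female 3, the same 2 libraries that were lowest and highest for the neuron list. Immature female 2 was also the lowest library for the glia list (518.2 CPM) and the muscle list (56390 CPM). Their highest libraries were immature female 3 and mature female 1. As a percentage of the neuron list, the sum over the 18 members stayed between 8.83% and 12.0%. For 13 of 19 members the highest-to-lowest ratio over libraries was smaller relative to the neuron list than in CPM, for example 1.99 against 3.99 for Tbh, 1.56 against 3.36 for Tdc2 Gene016892 and 1.87 against 3.60 for ple Gene011391. Hn was among the 13, though its ratio stayed wide at 157.9 against 245.6. The 6 exceptions were the SLC18B1-like Gene017613 and 5 DAT members, namely both glycine transporter-like genes, Gene014266, Gene019275 and Gene007767. The share of all genes with a smaller ratio relative to the neuron list was not computed, so the count of 13 is only a description. Whether libraries differed in the share of neural tissue was not tested.

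Correlations among members were computed over all 10 libraries, without adjustment for the neuron list. Permutations shuffled all 10 libraries without regard to stage or sex. Over the 153 pairs of members other than Hn, r of log2 CPM ranged from -0.91 to 0.95 with a median of 0.46, and 13 pairs had a permutation p that stayed under 0.05 after Benjamini-Hochberg adjustment. The highest was that of ple Gene011391 with Tbh, at r = 0.95 (permutation p = 0.00022, adjusted 0.0122), rho = 0.92 (permutation p = 0.00065, adjusted 0.0632) and r = 0.84 without mature female 1 and mature female 3. The 2 ple pieces had r = 0.64 (permutation p = 0.0452, adjusted 0.141) and rho = 0.42 (permutation p = 0.234, adjusted 0.426), which dropped to r = 0.02 without those 2 libraries. Pairs within DAT had a median r of -0.02, against 0.57 within Vmat. By Spearman's rho no pair passed, the lowest adjusted permutation p being 0.0632. The genes of a library share its depth and tissue make-up, and the labels give no batch within which to repeat these values. The r of pairs over all tested genes was not computed, so the count and the median of member pairs are descriptions.

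Among 11524 tested genes with a named Drosophila match outside the members, those most like ple Gene011391 over the 10 libraries were bsk (r = 0.97), PyK (r = 0.96) and aay (r = 0.96), which encode a stress-activated kinase, pyruvate kinase and phosphoserine phosphatase. Those most like Tbh were PyK (r = 0.97), Gad1 (r = 0.97), the glutamate decarboxylase that makes the transmitter GABA, and Vha55 (r = 0.95), a subunit of the vesicular proton pump. For Vmat Gene009888 they were Su(dx) (r = 0.93), CG13287 (r = 0.93) and mIF2 (r = 0.92). Hn was added to this comparison after its values were seen. It was most like norpA (r = 0.99), mAChR-A (r = 0.99), a muscarinic acetylcholine receptor, and CG5326 (r = 0.98), a fatty acid elongase. In Drosophila norpA is a phospholipase C of phototransduction. The Swiss-Prot match of this spider gene named a delta-4 form of the enzyme, and its role was not measured. These r values describe the most extreme of many comparisons.

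The other genes of the pathway, listed by Drosophila symbol, were not called either. By edgeR's quasi-likelihood test, the likelihood ratio test and DESeq2, 0 of 5 cofactor genes, 0 of 1 breakdown gene, 0 of 8 genes for related decarboxylases and histamine, 0 of 9 related transporters and 0 of 19 tested amine receptors (of 22 counted) were called for maturity over both sexes or for sex over both stages, against the shares of all genes given above for these 3 tests. At an unadjusted p under 0.05 by the quasi-likelihood test there were 2, 0, 3, 2 and 2 genes for maturity, where 15.1% of all genes passed, and none for sex, where 4.45% did. Median log2 fold changes for maturity were 0.53, 0.24, 0.37, 0.25 and 0.32 in these 5 lists, against -0.02 for all genes. Lists of other genes also lay away from 0 by this measure, with medians of 0.38 for the neuron list, 0.24 for muscle, 0.71 for cuticle and epidermis, 0.06 for glia and -0.75 for haemocytes, and their part in the pathway values was not tested.

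In each list 1 gene had the lowest p for maturity over both sexes. Among the cofactor genes this was Sptr (Gene006026), sepiapterin reductase, which makes the hydroxylases' cofactor, at -0.87 on the log2 scale (SE 0.31, adjusted p = 0.275 by edgeR's quasi-likelihood test). It was at 14.3, 10.3 and 9.23 CPM in immature female 2, immature male 1 and immature male 3 and at 4.33 to 6.67 CPM in the other 7 libraries, the first 3 being those low for Hn. The breakdown list held only b, the aspartate decarboxylase that supplies beta-alanine for joining to dopamine, at 0.24 (SE 0.37, adjusted p = 0.773 by the same edgeR test).

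Among the other lists, the dopamine receptor Dop1R2 (Gene011272) had a log2 difference of 0.99 in favour of mature brains, with SE 0.28 and an adjusted p of 0.228 by edgeR's quasi-likelihood test. Its CPM was 1.87 to 3.84 in the 5 immature libraries and 4.30 to 7.13 in the 5 mature ones. It was the 1 receptor of 19 tested whose stages did not overlap in this direction, as held for 1.5% of all genes. Gat (Gene003674), a GABA transporter, had 0.92 (SE 0.26) and CarT (Gene022709), a carcinine transporter, -1.52 (SE 0.43), each with an adjusted p of 0.229 by edgeR's quasi-likelihood test. For sex over both stages the lowest p of the 5 lists were those of Pu at 0.42 (SE 0.42), b at -0.11 (SE 0.37), CarT Gene010076 at 0.35 (SE 0.32), Gat Gene003649 at 0.18 (SE 0.15) and the octopamine receptor gene Octbeta2R (Gene018356) at -0.34 (SE 0.16), each with an adjusted p of 1 by edgeR's quasi-likelihood test.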

How the data were processed

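Per the labels and the paper, the authors trimmed reads with Trimmomatic 0.32, assembled them without a genome (Trinity, CAP3), predicted coding sequences (TransDecoder), named them against Swiss-Prot and Drosophila (Trinotate) and aligned reads with BWA-MEM 0.6.1-r104. The deposited values are counts of reads per gene and library, not normalized. The other text columns used, names, lengths and matches, are from the authors' deposited annotation. Entries of 14278 of 25943 annotated genes stood 1 column to the left and were moved back. How reads on several genes or strands were handled is not given in the sources used here.

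The main test was that of edgeR 4.0.16 in R 4.3.3 (filterByExpr, minimum count 10; TMM; quasi-likelihood F test, 4 group means over all 10 libraries; Benjamini-Hochberg over 24930 genes, threshold 0.05), with the likelihood ratio test and DESeq2 1.42.0 as alternatives. The SE of a log2 fold change is its size divided by the square root of F. Groups of 2 or 3 spiders limit precision, with a biological coefficient of variation of 0.457. RPKM used annotated coding lengths. Correlations used log2 CPM (prior count 2) and 100000 permutations. Fits were tested on simulated data. A fold change was given for a called member, for one with separate groups and unadjusted p under 0.05, or for the lowest p of a comparison. In other pathway lists the gene with the lowest p was named. Members, lists and tests were chosen with earlier results of these data known. Other alternatives were newer quasi-likelihood estimation, RLE factors, a filter at a mean of 1 CPM or none, a block for replicate number, fits of the groups compared, counts summed per symbol, members of the same Swiss-Prot family and leaving out each library. Libraries low for Hn left out and neuron-list scaling were added after seeing the data.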

Additional observations from a re-analysis of the deposited data

Results flagged for a closer look

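Single libraries far from the others of their set (gap to the nearest value against the range, Dixon's 95% limit) were found in 4 of 76 sets. These were the immature, mature, female and male sets of 5 libraries for each of the 19 members. Chance alone gives about 1 in 20, or 3.8 sets. Hn (Gene017463) in immature female 2 was at 10.1 CPM among the females, whose other libraries were at 564.4 to 921.7 CPM. DAT Gene007767 was at 30.9 CPM in immature female 2 among the females (46.4 to 50.4 CPM elsewhere) and at 30.4 CPM in mature male 3 among the mature libraries (44.0 to 50.4 CPM elsewhere). DAT Gene010212, the glycine transporter-like member, was at 29.6 CPM in mature female 1 among the females (41.3 to 45.3 CPM elsewhere).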

How the results depend on the processing

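The count of members called was 0 in each of the 7 comparisons under every alternative run. Of the log2 fold changes given for single members, 268 values under alternatives kept their direction and their side of the threshold and 6 changed sign, all of Hn. Without immature female 3 the value of Hn was 4.19 between immature sexes, 2.07 for sex over both stages and -4.23 for the interaction. Between mature sexes it was 0.23 without mature female 3, 0.05 without mature male 2 and 0.24 with counts scaled to the neuron list. Leaving out each library in turn gave, for Hn, 0.09 to 6.09 in females, 1.28 to 7.10 in males, 0.98 to 4.07 over both sexes, -6.12 to 4.19 between immature sexes, -0.18 to 0.23 between mature sexes, -3.09 to 2.07 for sex over both stages and -4.23 to 6.06 for the interaction. For Gene009914 the range was 0.42 to 1.34 in females and 0.48 to 0.91 over both sexes, for Gene017613 in males 0.50 to 0.96, for Gene009888 0.48 to 0.91 between immature sexes and 0.30 to 0.83 over both stages, and for ple Gene011191 -1.47 to -0.34 between mature sexes and -1.55 to -0.42 for the interaction. The cause of these shifts was not tested. Whether replicate numbers pair the libraries was not settled. Of 13 same-numbered pairs, 5 had a correlation of deviations over 0.1 (range -0.36 to 0.30), and 4 of 10 libraries correlated best with their own number. Same-numbered pairs without an immature female ran from 0.09 to 0.30, and differently numbered ones without an immature female reached at most 0.07. Same-numbered pairs with an immature female ran from -0.36 to 0.01. Both immature females, and likewise both mature males, deviate from the shared mean of their group in opposite directions. For example, immature male 2 had 0.0942 with mature male 2 and -0.0942 with mature male 3. Part of the contrast between same-numbered and differently numbered pairs was thus fixed in advance, which limits this check. With replicate number as a block, 0 members were called, the log2 fold change over both sexes was 0.66 for Gene009914 and 1.95 for Hn, and the number of all genes called for maturity over both sexes went from 0 to 31. Depth limits the 7 low members most, which had 6 to 90 reads per library.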
